A study of Mus musculus with 18 samples.

Results

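The H/ACA box small nucleolar RNAs (snoRNAs) were described in small RNA libraries of mouse brain cell fractions. Members were taken from the deposited count table as rows of the type snoRNA whose name begins with Snora, and rows that carry the same number were summed. This gave 38 rows and 36 members among 203513 rows in all. A pair of rows was summed for Snora73 (Snora73a and Snora73b) and another pair for Snora43, and every other member was a single row. The libraries came from brains of mice aged 10 months that were either wild type (WT) or homozygous for Atxn2-CAG100-KIN (KIN), in which a long CAG repeat stands in place of a single glutamine codon at the Atxn2 locus to model spinocerebellar ataxia type 2, on a C57BL/6 background. Microglia were drawn from each dissociated brain with CD11b beads, astrocytes from the remainder with ACSA-2 beads, and neurons were what flowed through after other cells had been bound. There were 3 libraries for each of the 6 combinations of fraction and genotype, 18 in all, with equal amounts of RNA put into each, so a value says how much of a library's RNA a member made up.

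H/ACA snoRNAs fold into hairpins joined by a hinge that carries the H box and end in a short tail with the trinucleotide ACA. Each binds the proteins dyskerin (Dkc1), Nop10, Nhp2 and Gar1, and the internal loops of the hairpins pair with a target RNA, mostly ribosomal RNA, to place a uridine in the catalytic site where it becomes pseudouridine. A few have other tasks, such as Snora73, which takes part in the cleavage of the precursor of ribosomal RNA, and the telomerase RNA Terc ends in an H/ACA domain. In mammals most are cut from introns of host genes, many of which encode ribosomal proteins or translation factors, so that a member depends on the transcription and splicing of its host.

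The sequences of the members that the results turn on are given first, read from the GRCm39 genome (the build mm39 of the deposited table) at the positions of the GENCODE vM39 annotation, which holds all 38 rows. Of those shown, Snora23, Snora30, Snora35, Snora41, Snora47 and Snora78 lay in no exon of another transcript of the table on their strand, so in an intron of the host as far as the table lists its transcripts, and Snora9, Snora28 and Snora52 lay within an exon of at least 1 such transcript. The capitals mark the ANANNA hexamer (the letters of the H box) nearest to the middle of the RNA and the last ACA within the final 10 bases. Snora23, Snora30, Snora41, Snora47 and Snora78 are shown because they were lower in neurons than in both other fractions, Snora35 because it was highest in astrocytes, Snora28 because it was the most abundant, and Snora9 and Snora52 because they varied among KIN microglia libraries.
Snora23, chr7:109645571-109645754, plus strand, within Ipo7: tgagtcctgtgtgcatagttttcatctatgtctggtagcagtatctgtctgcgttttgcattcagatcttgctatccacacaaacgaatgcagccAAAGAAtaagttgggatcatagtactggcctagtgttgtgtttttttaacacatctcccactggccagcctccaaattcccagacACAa
Snora30, chr7:127127046-127127175, plus strand, within Srcap: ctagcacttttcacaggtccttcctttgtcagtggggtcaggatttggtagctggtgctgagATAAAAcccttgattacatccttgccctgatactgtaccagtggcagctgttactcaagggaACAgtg
Snora41, chr1:63218163-63218294, plus strand, within Eef1b2: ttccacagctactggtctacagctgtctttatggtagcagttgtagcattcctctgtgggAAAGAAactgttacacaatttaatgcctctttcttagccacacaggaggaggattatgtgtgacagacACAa
Snora47, chr13:95467108-95467245, plus strand, within Zbed3: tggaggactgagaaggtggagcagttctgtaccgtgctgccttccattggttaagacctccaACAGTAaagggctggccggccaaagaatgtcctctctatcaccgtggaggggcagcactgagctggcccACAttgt
Snora78, chr17:24938650-24938777, minus strand, within Snhg9: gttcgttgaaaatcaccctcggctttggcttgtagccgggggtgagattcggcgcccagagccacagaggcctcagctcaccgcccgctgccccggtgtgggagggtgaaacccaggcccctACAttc
Snora35, chrX:145777377-145777504, plus strand, within Htr2c: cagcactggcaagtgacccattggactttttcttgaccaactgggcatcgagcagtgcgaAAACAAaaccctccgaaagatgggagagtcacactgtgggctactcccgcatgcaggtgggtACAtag
Snora28, chr12:111507375-111507501, plus strand, within Eif5: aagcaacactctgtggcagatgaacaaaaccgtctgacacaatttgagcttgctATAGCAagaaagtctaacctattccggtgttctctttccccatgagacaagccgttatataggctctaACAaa
Snora9, chr11:6478033-6478165, minus strand, within Snhg15: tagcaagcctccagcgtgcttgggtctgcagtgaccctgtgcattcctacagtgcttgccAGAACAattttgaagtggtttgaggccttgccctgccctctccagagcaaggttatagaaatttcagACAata
Snora52, chr7:141028716-141028852, plus strand, within Rplp2: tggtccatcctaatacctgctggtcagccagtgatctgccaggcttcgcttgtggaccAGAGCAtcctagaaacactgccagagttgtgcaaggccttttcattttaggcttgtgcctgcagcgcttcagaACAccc

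The sequences bore out the family label. ANANNA lay in the middle of the RNA (its centre between 35% and 65% of the length) in 35 of 38 rows, and ACA lay within the last 10 bases in 36. In 31 rows ACA was exactly 3 bases from the 3′ end. In Snora23 and Snora41 that ACA overlaps the one in capitals, which lies nearer to the end. Both motifs were present in 33 rows and no row lacked both, whereas of 76 rows of C/D box snoRNAs (named Snord and a number), the other large snoRNA family, 25 held ANANNA in the middle, 7 held ACA near the end and 1 held both. The search used the sense strand and these letters alone, so Snora78, printed without a capital hexamer, is a row in which these letters were not found in that window. The 38 rows were 121 to 205 bases long (median 132.5), and those of C/D box snoRNAs 64 to 238 (median 79.5). H/ACA snoRNAs were therefore longer than a read, and a count stands for a read of part of the RNA. Whether the molecule read was whole or a fragment was not measured.

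The depth of the libraries was 1211118 to 4316748 counts, and the neuron libraries were the smallest. All snoRNA rows together took 19.2% to 31.8% of a library, and the H/ACA members took 13737 to 59178 counts. Fractions were checked with miRNAs that are typical of cell types. The 4 myeloid miRNAs summed to 8742 to 18987 CPM (counts scaled to 1000000 counts of the library) in microglia, 21.3 to 75 in astrocytes and 121 to 523 in neurons. The 4 neuronal miRNAs summed to 1063 to 3191 CPM in astrocytes but to only 50.4 to 232 in neurons, so the fraction labelled neurons did not carry the miRNAs that define that cell type at the level seen in the astrocyte fraction. In microglia these miRNAs summed to 62.5 to 162 CPM in WT and 48.9 to 55.6 in KIN. The WT neuron libraries (50.4 to 232) thus overlapped with the WT microglia libraries, while KIN neurons (89.8 to 186) lay above KIN microglia. Both miRNAs of the neural lineage (miR-9) summed to 5835 to 9496 CPM in astrocytes, 964 to 4079 in neurons and 59.1 to 245 in microglia, and 2 oligodendrocyte miRNAs were at 830 to 2148 CPM in astrocytes, 19.3 to 32.7 in microglia and 0 to 74.1 in neurons. Endothelial miRNAs (2) summed to 219 to 563 CPM in astrocytes, 118 to 265 in microglia and 4.94 to 33.3 in neurons, and mural cell miRNAs (2) to 197 to 310, 59.4 to 202 and 25.1 to 96.6, so both lists were lowest in neurons, as were 7 of the members. Red blood cell miRNAs (3) summed to 66.8 to 303 CPM in WT neurons, 43.7 to 76.8 in KIN neurons, 25.9 to 61.0 in astrocytes, 17.3 to 22.2 in WT microglia and 28.6 to 131 in KIN microglia. The fragments of Atxn2 transcripts, 79 counts in all libraries, were too few to check the genotype. The female-specific transcript Xist had 4 or 5 counts in replicate 1 of the 3 KIN groups and 12 to 102 in the other 15 libraries, and the labels give no sex. The study's methods describe littermate pairs of the same sex, most of them male, which these counts do not match. The part of cell composition and of sex in the results was not tested, and in these bulk fractions fewer cells of a type cannot be told apart from less RNA per cell.

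Of the 36 members, 34 had at least 5 counts in at least 2 libraries of every comparison and were tested. Snora43 had 29 counts in all and Snora70 had 1, which left them out of the tests. The pool was uneven. Snora28, which lies within the gene of the translation initiation factor Eif5, held 25.8% of all H/ACA counts, the 2 most abundant members 40.8% and the 5 most abundant 61.0%. Per 100 bases of RNA and scaled to the library total, Snora28 led with 2933 CPM, followed by Snora68 with 1492, Snora21 (Rpl23) with 763, Snora3 (Rpl27a) with 726, Snora30 (Srcap, a chromatin remodeller) with 480 and Snora7 (Rpl32) with 401, as means of the 18 libraries. Snora31 (Tpt1), Snora65 (Rpl12), Snora57, Snora81 (Eif4a2), Snora2 (Kansl2) and Snora64 (Rps2) followed between 384 and 172 CPM per 100 bases. Snora73 and Snora74, which are among the longest members, were low, with Snora73 at 31.3 to 48.5 CPM and Snora74 at 11.8 to 33.4 CPM in group means not scaled to length.

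Levels of different members also depend on how many rows share their reads. Of the 38 rows, 20 lay inside an exon of another listed transcript, often a retained intron form of the host. Snora52 had 12272 counts and the retained intron transcript Rplp2-205, which contains it, had 12281, with a ratio of 0.992 to 1 in the 18 libraries. The squared difference of the 2 counts divided by their sum averaged 0.00111, where separate reads would give about 1, so both rows moved together more closely than separate reads would. The same held for Snora75 with Ncl-206 (0.00500) and Snora7 with Rpl32-202 (0.115). Snora28, with 198523 counts, came close to the sum of Eif5-204 and Eif5-208, 200377 counts, at a ratio of 0.969 to 0.996. The squared difference divided by the sum averaged 0.740 for it, far less close than for Snora52, Snora75 and Snora7 and nearer to the value of about 1 for separate reads. Snora9 instead had 7720 counts beside 7829 to 8084 on each of 6 Snhg15 transcripts that contain it, with averages of 1.49 to 2.30. Members grouped under a long noncoding host gene, other than Snora78, all lay in an exon of a transcript with more counts than their own, so their levels, those of Snora9, Snora24 and Snora26 among them, are uncertain. Snora73, which lies within both Rcc1 and the noncoding Snhg3, lay in no exon of another listed transcript. Members within protein-coding hosts were affected as well, with 11924 counts on Snora33 beside 224771 on Rps12-209, 22288 on Snora81 beside 45046 on Eif4a2-217, 57733 on Snora3 beside 69404 on Rpl27a-202, and 24745 on Snora65 beside 30930 and 31232 on Rpl12-205 and Rpl12-207.

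The first question was whether the H/ACA pool as a whole differed. H/ACA members took 1.48% ± 0.0401 of the counts in WT astrocytes, 1.52% ± 0.0588 in WT microglia and 1.17% ± 0.124 in WT neurons (mean ± SD, n = 3). In KIN these shares were 1.49% ± 0.0706, 1.37% ± 0.177 and 1.13% ± 0.133. WT neuron libraries, at 1.13%, 1.06% and 1.31%, lay below all WT astrocyte libraries (1.43% to 1.51%) and all WT microglia libraries (1.46% to 1.57%). The difference was -0.31 percentage points against astrocytes and -0.36 against microglia, each with p = 0.1, the smallest value that the exact two-sided permutation test can give with 3 against 3 libraries, and an adjusted p of 0.3 over 6 comparisons. KIN and WT overlapped in all 3 fractions, with exact permutation p of 0.8 in astrocytes, 0.4 in microglia and 0.8 in neurons (adjusted p = 0.8, 0.6 and 0.8). As a share of snoRNA counts alone, H/ACA members took 6.65% ± 0.341 in WT astrocytes, 6.37% ± 0.286 in WT microglia and 4.18% ± 0.533 in WT neurons, and in neurons of both genotypes each library lay below every glial library (3.34% to 4.54% against 6.18% to 7.37%).

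**Figure D1:**
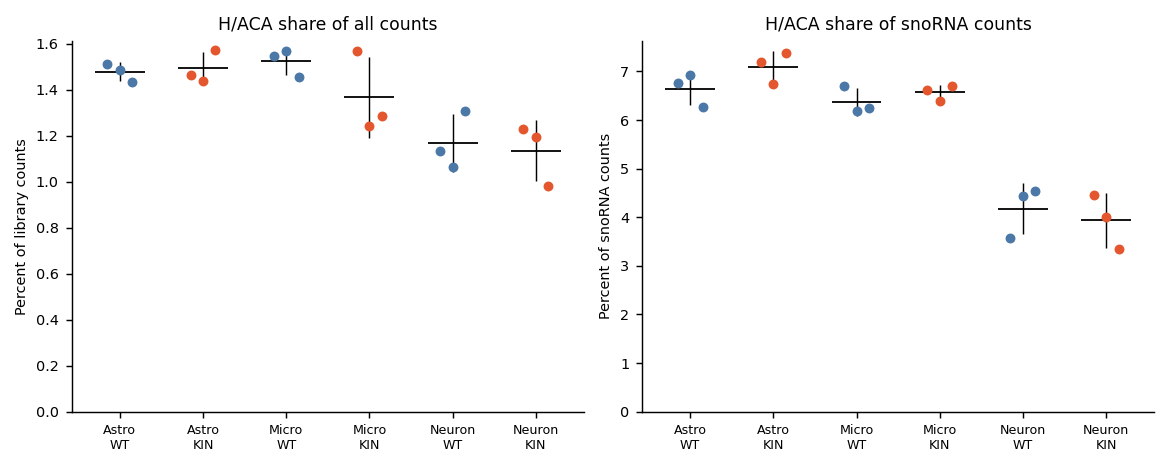
H/ACA counts as a percentage of all counts (left) and of snoRNA counts (right) in each library, by fraction and genotype. Points are libraries (blue WT, red KIN), horizontal lines group means and vertical lines ± SD, and the 6 neuron libraries lie at 3.34% to 4.54% of snoRNA counts, below the 12 glial libraries at 6.18% to 7.37%.

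The make-up of the pool differed between libraries mainly through Snora28. It took 29.4%, 33.3% and 30.3% of H/ACA counts in WT astrocytes, 17.0%, 21.1% and 17.8% in WT microglia, and 62.0%, 30.4% and 31.2% in WT neurons. Replicate 1 of WT neurons, which has the lowest total, stood apart from all others in this measure. In KIN, Snora28 took 26.6% to 27.7% in astrocytes, 19.2% to 20.4% in microglia and 25.5% to 34.2% in neurons. Without Snora28, the remaining members took 1.02% ± 0.0415 of all counts in WT astrocytes, 1.24% ± 0.0441 in WT microglia and 0.690% ± 0.238 in WT neurons.

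**Figure D2:**
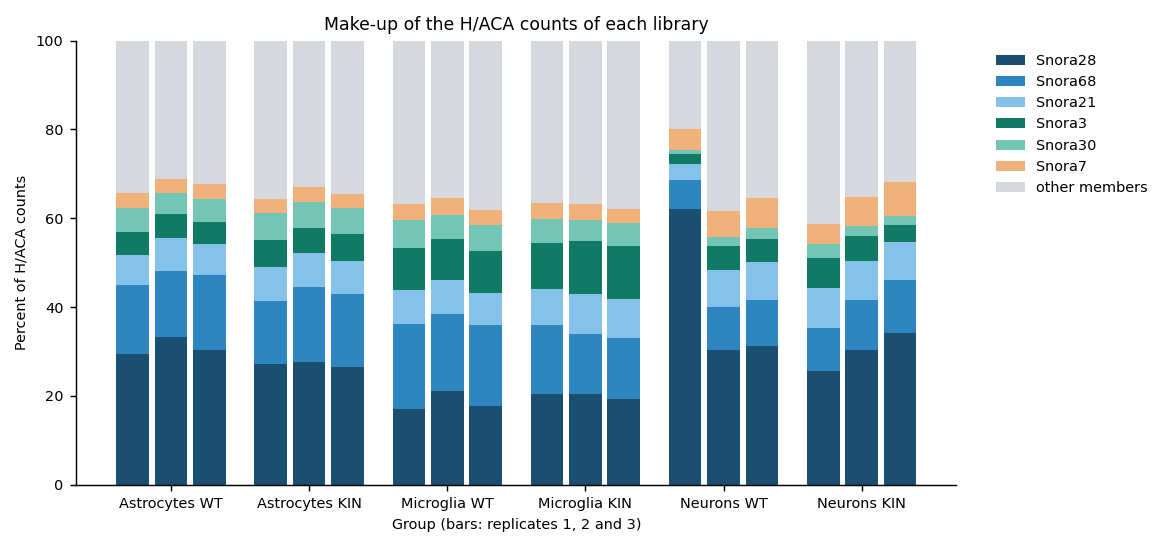
Share of each of the 6 most abundant members, and of all other members together, in the H/ACA counts of each of the 18 libraries (stacked bars, percent). Snora28 takes 17.0% to 34.2% everywhere except in replicate 1 of WT neurons, where it takes 62.0%.

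Between KIN and WT, no H/ACA snoRNA passed the test in any fraction. Calls required both an edgeR adjusted p no higher than 0.05 and a change of 1 or more on the log2 scale, and 0 of 34 were called in astrocytes, where 8.19% of all features tested were, 0 of 34 in microglia (4.35% of all features) and 0 of 34 in neurons (0% of all features). At an unadjusted p of at most 0.05 in edgeR there were 14 members in astrocytes (34.4% of all features), 1 in microglia (25.3%) and 0 in neurons (4.32%), and DESeq2 also called none. The changes were small and mostly on the side of KIN. The log2 fold change was above 0 for 29 of 34 members in astrocytes, 24 in microglia and 28 in neurons, against 42%, 43.8% and 42.4% of all features, and the median over members was 0.21, 0.14 and 0.24 against -0.19, -0.11 and -0.11 over all features. These sides depend on the scaling in microglia, where the median over members was -0.09 and 10 of 34 were above 0 with library totals alone. In astrocytes 26 of 34 stayed above 0 with library totals, but the size of the shift depended on the scaling. The median over members was then 0.08, against -0.31 over all features, and 7 members in place of 14 had an unadjusted edgeR p of at most 0.05. The sides also depend on single libraries. In neurons 15 of 34 were above 0 (median -0.01) without Neurons WT replicate 1, and in microglia 13 (median -0.08) without Microglia KIN replicate 1 and 16 (median -0.00377) without Microglia WT replicate 1, whereas in astrocytes 28 to 30 were above 0 whichever library was left out.

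In astrocytes the groups were tight. Snora69, hosted by Rpl39, was at 131, 136 and 135 CPM in KIN and at 108, 97.2 and 97.2 in WT, so the groups did not overlap, and KIN was higher by 0.55 ± 0.14 on the log2 scale (SE, edgeR adjusted p = 0.0362). Snora30 was at 887, 825 and 907 CPM in KIN and 803, 713 and 756 in WT, again without overlap, and changed by 0.34 ± 0.09 on the log2 scale (edgeR adjusted p = 0.0412). Snora24, from the noncoding host Snhg8, was at 18.9, 20.3 and 19.1 CPM in KIN and 13.4, 9.80 and 11.5 in WT, a difference of 0.89 ± 0.25 (edgeR adjusted p = 0.0453). All 3 thus passed the adjusted p but missed the fold that a call required, and 11.7% of all features passed that p at any fold. The number of members that passed it was not stable, with 0 in 5 of the 6 fits that left out a library, 13 without Astrocytes WT replicate 2, 10 in DESeq2 and 0 in 1 fit of all 18 libraries. Snora65 and Snora81 followed with log2 fold changes of 0.38 ± 0.11 and 0.41 ± 0.12 (adjusted p = 0.0506 and 0.0530). On the other side stood Snora26, from the noncoding host Dancr, at 8.72, 8.36 and 8.06 CPM in KIN against 20, 17.8 and 12.8 in WT, with a log2 fold change of -0.88 ± 0.28 (adjusted p = 0.0647). With library totals alone its value was -1.01 (adjusted p = 0.0465), the only call that this scaling gave between KIN and WT. After scaling by TMM factors, all 3 KIN libraries lay above all 3 WT libraries for 18 members and below them for 1, where 14.8% and 21.5% of all features did so. In microglia 5 members lay above and 1 below (13.2% and 13.8% of all features), and in neurons 0 and 0 (4.87% and 5.89%).

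In microglia, 1 KIN library differed from its group. Snora52, hosted by Rplp2, was at 338, 43.1 and 87.8 CPM in KIN replicates 1, 2 and 3 and at 245, 321 and 293 in WT. Snora9 was at 120, 52.1 and 56.6 CPM in KIN and at 164, 142 and 173 in WT. KIN replicate 1 was thus among or near the WT libraries for both, while the other two lay well below. Their log2 fold changes with all libraries were -0.59 ± 0.65 for Snora52 and -0.80 ± 0.36 for Snora9 (edgeR adjusted p = 0.669 and 0.204). Without Microglia KIN replicate 1 they were -2.01 ± 0.36 (adjusted p = 0.0170) and -1.41 ± 0.20 (adjusted p = 0.00926), and both were called. Snora47 and Snora62 also set that library apart, at 259 CPM against 110 and 137 in the other KIN microglia and at 186 CPM against 92.2 and 91.7. That library is one of those with few Xist counts, whose part was not tested. The smallest p with all libraries was that of Snora78, from the noncoding host Snhg9, at 225, 137 and 172 CPM in KIN and 348, 295 and 323 in WT, and the log2 fold change was -0.60 ± 0.26 (edgeR adjusted p = 0.178). Snora41, Snora3 and Snora24 had values of 0.54 ± 0.28, 0.35 ± 0.20 and 0.41 ± 0.23 (adjusted p = 0.274, 0.313 and 0.324).

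In neurons the errors were wider. SE of the members ran from 0.26 to 0.54 on the log2 scale, against 0.09 to 0.28 in astrocytes, and the 3 members that passed the adjusted p in astrocytes had differences there of 0.34 to 0.89. The smallest p was that of Snora28, at 3139, 3603 and 3362 CPM in KIN and 7033, 3235 and 4070 in WT, which overlap, and its log2 fold change was -0.52 ± 0.30 (edgeR adjusted p = 0.918). Snora62, Snora41, Snora74 and Snora24 came next, with log2 fold changes of 0.67 ± 0.41, 0.75 ± 0.49, -0.67 ± 0.47 and 0.56 ± 0.40, all at an adjusted p of 0.918. The effect of KIN was also compared directly between the glial fractions. No member was called for a difference between microglia and astrocytes (0.312% of all features were). Unadjusted edgeR p-values of 0.05 or less were found for 2 members (10.4% of all features), and DESeq2 called none. The smallest p were those of Snora9 (-1.04 ± 0.38, adjusted p = 0.298), Snora78 (-0.79 ± 0.31, 0.341), Snora30 (-0.49 ± 0.25, 0.509), Snora35 (0.79 ± 0.44, 0.574) and Snora68 (-0.43 ± 0.26, 0.613). Without Microglia KIN replicate 1 the values for Snora9 and Snora52 were -1.55 and -2.17 (edgeR adjusted p = 0.0101 and 0.0127) and both were called.

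**Figure D3:**
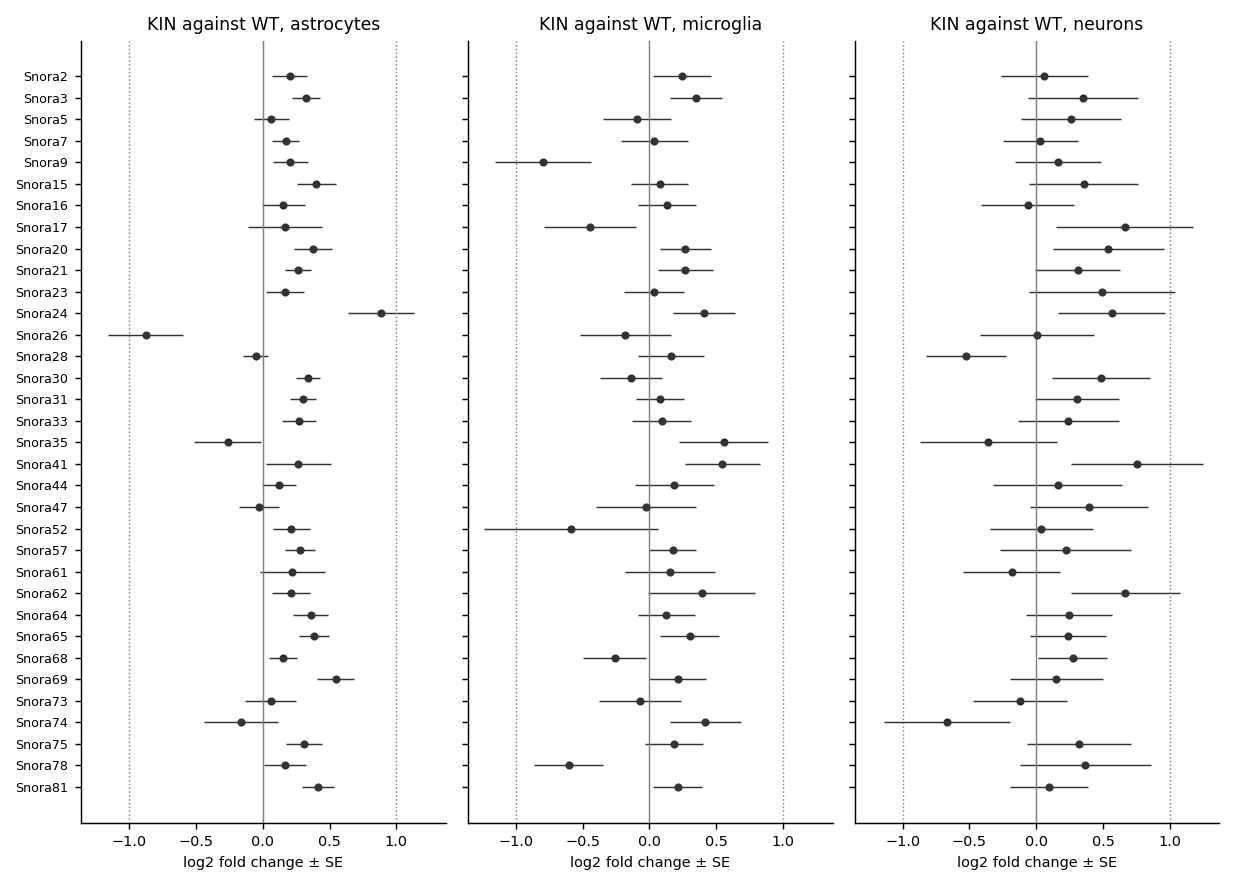
Log2 fold change of KIN against WT (x axis, with SE as bars) for each of the 34 members tested, in astrocytes, microglia and neurons. Dotted lines mark the absolute log2 fold change of 1 that a call required, and no point lies beyond it in any of the 3 panels.

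Between fractions, 17 of 34 members were called in at least 1 comparison, where 68.1% of the features tested in all 10 comparisons were. A set of 7 was lower in neurons. Snora23, Snora30, Snora41, Snora47, Snora62, Snora68 and Snora78 were called lower in neurons than in astrocytes and than in microglia, in WT and again in the separate KIN libraries, which is all 4 comparisons that involve neurons. That is 7 of 34 members, beside 7.83% of the features tested in all 4. The comparisons within a genotype share their neuron libraries, while WT and KIN libraries are separate. Their hosts are unlike one another, an importin (Ipo7), a chromatin remodeller (Srcap), a translation elongation factor (Eef1b2), a zinc finger protein (Zbed3), a protein of the small ribosomal subunit (Rpsa) and a noncoding transcript (Snhg9) among them. Their median length of 132 bases and median GC content of 48.5% equalled those of the 27 other members tested. Counted over all members, 7 of 34 were called lower in neurons than in astrocytes in WT and 0 higher, where 28.7% of all features were called, 18.5% lower and 10.2% higher, so the share of members called lower was near that of all features. In KIN 8 were called lower and 1 higher (46.3% of all features called, 24.1% lower and 22.2% higher). Against microglia 12 of 34 were called lower and 0 higher in WT (28% of all features called, 14.5% lower and 13.5% higher), and 12 lower and 0 higher in KIN (53% called, 26.2% lower and 26.7% higher). The median over members was -0.54 and -0.54 against astrocytes and -0.72 and -0.70 against microglia, in WT and KIN, against -0.50, 0.06, -0.15 and 0.02 over all features.

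Snora47 showed the widest gap to astrocytes. It was at 428, 353 and 329 CPM in WT astrocytes, 192, 238 and 181 in WT microglia and 25.6, 60.8 and 43.9 in WT neurons, so the 3 fractions did not overlap. In KIN it was at 306, 289 and 399 CPM in astrocytes, 259, 110 and 137 in microglia and 80.2, 56.0 and 34.6 in neurons. The log2 fold change of neurons against astrocytes was -3.28 ± 0.40 in WT and -2.78 ± 0.24 in KIN (edgeR adjusted p = 0.00180 and 6.87e-13). Snora23 was at 119, 124 and 116 CPM in WT astrocytes, 175, 159 and 148 in WT microglia and 5.78, 30.2 and 30.1 in WT neurons, and at 43.5, 25.1 and 24.3 CPM in KIN neurons against 118 to 131 in KIN astrocytes and 125 to 155 in KIN microglia. Its log2 fold change of neurons against microglia was -3.04 ± 0.56 in WT and -2.66 ± 0.32 in KIN (adjusted p = 0.00367 and 2.33e-07), and no neuron library reached a glial one. Snora41 was a rarer RNA with 4, 12 and 11 counts in WT neurons against 90 to 113 in WT astrocytes and 120 to 156 in WT microglia, and its log2 fold changes of neurons against microglia were -2.99 ± 0.49 in WT and -2.84 ± 0.38 in KIN (adjusted p = 0.00201 and 1.08e-06).

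Snora30 and Snora68 are among the most abundant members. Snora30 was at 803, 713 and 756 CPM in WT astrocytes, 977, 872 and 874 in WT microglia and 126, 213 and 305 in WT neurons, with log2 fold changes of neurons of -2.02 ± 0.35 against astrocytes and -2.26 ± 0.38 against microglia (edgeR adjusted p = 0.00517 and 0.00233). Snora68 was at 2358, 2218 and 2437 CPM in WT astrocytes, 2984, 2716 and 2642 in WT microglia and 737, 1030 and 1343 in WT neurons, with log2 fold changes of -1.38 ± 0.26 and -1.61 ± 0.31 (adjusted p = 0.00720 and 0.00398). In KIN, Snora68 against microglia had a value of -1.15 ± 0.24 (edgeR adjusted p = 0.000253) and was no longer called with library totals (-0.66), with DESeq2, or without Microglia KIN replicate 1 or Neurons KIN replicate 3. Snora62 was at 152, 130 and 131 CPM in WT astrocytes, 87.5, 147 and 94.1 in WT microglia and 27.2, 44.5 and 39.3 in WT neurons, and Snora78 at 245, 157 and 236, at 348, 295 and 323, and at 27.2, 83.3 and 104 CPM. Again no WT neuron library of either reached a glial library. For Snora78 the call against WT astrocytes (-1.76 ± 0.48, adjusted p = 0.0280) was lost without Astrocytes WT replicate 1 or 3. In KIN Snora78 against microglia (-1.45 ± 0.33) was not called with library totals (-0.97), and neither was Snora68 against astrocytes (-1.17 ± 0.18 and -0.93).

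**Figure D4:**
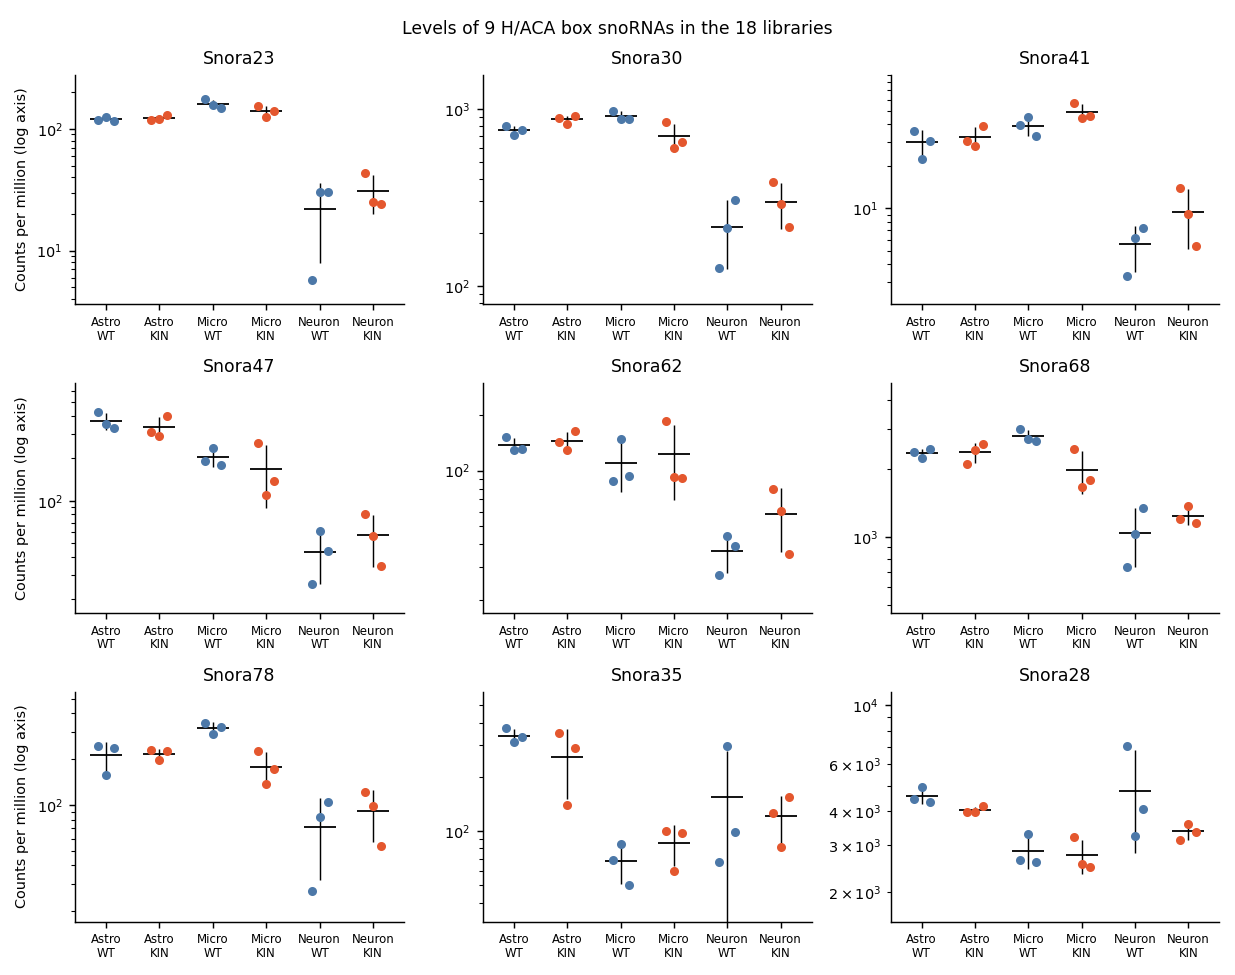
CPM (log axis) of the 7 members called lower in neurons in all 4 comparisons, of Snora35 and of Snora28 in the 18 libraries. Points are libraries (blue WT, red KIN), horizontal lines group means and vertical lines ± SD, and for each of the 7 the 6 neuron points lie below all 12 glial points.

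Further members set neurons apart from microglia. Snora3 (Rpl27a), Snora20 (Tcp1, a chaperonin subunit), Snora33 (Rps12) and Snora81 (Eif4a2) were called lower in neurons than in microglia in both genotypes, Snora17 in WT (-1.80 ± 0.53, edgeR adjusted p = 0.0296) and Snora16 in KIN (-1.02 ± 0.30, adjusted p = 0.00583). Snora3 was called whichever single library was left out, at 1464, 1435 and 1368 CPM in WT microglia and 234, 570 and 688 in WT neurons, with a log2 fold change of -1.71 ± 0.40 in WT and -1.78 ± 0.28 in KIN (adjusted p = 0.0111 and 7.91e-06). Snora20 had -1.35 ± 0.40 in WT and -1.14 ± 0.29 in KIN, Snora33 -1.27 ± 0.39 and -1.19 ± 0.28, and Snora81 -1.06 ± 0.30 and -1.24 ± 0.26. These calls rested on few libraries. In WT those of Snora17, Snora20, Snora33 and Snora81 were lost without any 1 of Microglia WT replicate 1, Microglia WT replicate 3 and Neurons WT replicate 1, those of Snora20 and Snora33 also without Microglia WT replicate 2, and those of Snora20 and Snora81 also without Neurons WT replicate 3. In KIN those of Snora16, Snora20, Snora33 and Snora81 were lost without Neurons KIN replicate 3, that of Snora16 also without Microglia KIN replicate 1, those of Snora16 and Snora20 with DESeq2, and none of these WT and KIN calls was made with library totals. Snora26 was called higher in neurons than in astrocytes in KIN, at 23.9, 25.1 and 14.4 CPM against 8.72, 8.36 and 8.06 (1.10 ± 0.34, adjusted p = 0.00601). That call was lost without Astrocytes KIN replicate 3 or Neurons KIN replicate 2, with no filter and in 1 fit of all 18 libraries. In WT the value of Snora26 was 0.13 ± 0.41. For other members the difference between neurons and astrocytes was small beside its error, among them Snora7 (0.28 ± 0.28 in WT and 0.23 ± 0.19 in KIN) and Snora73 (-0.06 ± 0.32 and -0.16 ± 0.26). Snora74, also known as U19, had values of 1.01 ± 0.43 in WT (edgeR adjusted p = 0.101), where it was called without Neurons WT replicate 1 (1.38, adjusted p = 0.0298), and 0.58 ± 0.34 in KIN. Of the abundant members that were called in none of the comparisons with the main settings, Snora21 had -0.54 ± 0.35 and -0.42 ± 0.18, Snora31 -0.77 ± 0.31 and -0.69 ± 0.19, and Snora64 0.26 ± 0.33 and 0.23 ± 0.20, in WT and KIN. Snora44, from the noncoding host Snhg12, had -0.84 ± 0.49 and -0.73 ± 0.22.

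**Figure D5:**
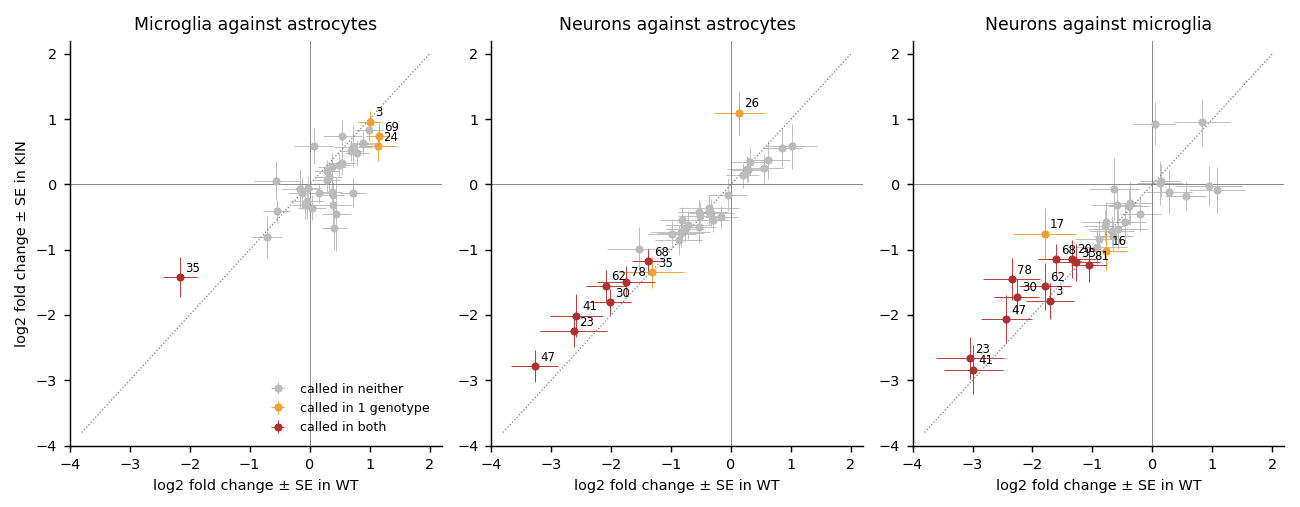
Log2 fold change of each of the 34 members between 2 fractions in WT (x axis) and in KIN (y axis), with SE as bars, for the 3 pairs of fractions. Numbers name the members called in at least 1 genotype, the dotted line marks equal values, and Snora47 (-3.28 and -2.78) and Snora35 (-2.16 and -1.42) lie farthest from 0 in the comparisons of neurons and of microglia with astrocytes.

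Snora35 had its highest mean in astrocytes in both genotypes. It is a brain RNA from an intron of Htr2c, the gene of a serotonin receptor that is abundant in the choroid plexus, and it has no known target in ribosomal RNA. It was at 372, 311 and 332 CPM in WT astrocytes, 69.4, 84.4 and 50.2 in WT microglia and 66.9, 296 and 98.8 in WT neurons. In KIN it was at 349, 140 and 289 CPM in astrocytes, 100, 60.2 and 97.3 in microglia and 125, 81.2 and 155 in neurons. Microglia did not overlap with astrocytes in either genotype, while 1 WT neuron library reached close to the astrocyte level and KIN neurons overlapped with KIN astrocytes. Against astrocytes, the log2 fold change of microglia was -2.16 ± 0.29 in WT and -1.42 ± 0.31 in KIN (edgeR adjusted p = 0.000286 and 0.00310), and both were made whichever single library was left out. That of neurons was -1.31 ± 0.54 in WT, which was not called (adjusted p = 0.0899) but was with DESeq2 (adjusted p = 0.0468), with no filter, in 1 fit of all 18 libraries, with the replicate block (-1.64, adjusted p = 0.00516) and without Neurons WT replicate 2 (-2.21, adjusted p = 0.000488), and -1.35 ± 0.24 in KIN (adjusted p = 5.86e-06). Between neurons and microglia its values were 0.95 ± 0.55 in WT and -0.02 ± 0.30 in KIN, and neither was called.

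Rows that share the locus or the source of Snora35 were looked at because of its values. A miRNA typical of the choroid plexus, miR-204-5p, was at 510, 690 and 527 CPM in WT astrocytes, 176, 188 and 131 in WT microglia and 37.2, 235 and 35.3 in WT neurons, so replicate 2 of WT neurons was the highest of its group for both RNAs. In KIN neurons miR-204-5p was at 252, 170 and 135 CPM, and the library lowest for it was the highest for Snora35. Another choroid plexus and ependyma miRNA, miR-449a-5p, was near 0, with group means of 0 to 1.21 CPM. The most abundant miRNA of the Htr2c locus, miR-1298-5p, was at 44.3 ± 10.6 CPM in WT astrocytes, 24.4 ± 7.68 in WT microglia and 16.8 ± 18.7 in WT neurons, with 41.0, 35.7 and 56.2 in the first, 25.1, 31.7 and 16.4 in the second and 4.95, 38.3 and 7.20 in the third. In KIN it was at 64.3 ± 40.0, 57.0 ± 11.4 and 10.6 ± 5.43 CPM, so both RNAs had their highest WT mean in astrocytes, while the order of microglia and neurons differed between them, and in KIN astrocytes and microglia overlapped for the miRNA. Fragments of Htr2c transcripts themselves numbered 105 in all libraries, of which 24 came from WT neurons and 58 from KIN neurons. The part of choroid plexus cells in these values was not tested.

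Between the glial fractions, few members differed by the fold that a call required. In WT 4 of 34 were called, 3 higher and 1 lower in microglia than in astrocytes (31.5% of all features called, 12.2% higher and 19.3% lower), and in KIN 1 was, Snora35, which was lower (35.3% of all features called, 14.1% higher and 21.2% lower). Higher in WT microglia were Snora69 at 221, 188 and 212 CPM against 108, 97.2 and 97.2 (1.15 ± 0.21, edgeR adjusted p = 0.00204), Snora24 at 25.3, 21.0 and 24.0 against 13.4, 9.80 and 11.5 (1.13 ± 0.31, adjusted p = 0.0157) and Snora3 at 1464, 1435 and 1368 against 806, 803 and 711 (1.00 ± 0.19, adjusted p = 0.00277). None of these groups overlapped, and the values in KIN were 0.74, 0.59 and 0.96. The call of Snora24 was lost without Astrocytes WT replicate 3 and with no filter. That of Snora3 was lost without Astrocytes WT replicate 3 or Microglia WT replicate 2. It was also lost with library totals, with the replicate block and in 1 fit of all 18 libraries. Snora65, at 488, 622 and 519 CPM against 315, 300 and 285, was just under the fold required (1.00 ± 0.23, edgeR adjusted p = 0.00721).

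By host gene, the 10 members from ribosomal protein genes had a median log2 fold change of 0.62 in WT microglia against WT astrocytes with 9 of 10 above 0, and 0.35 in KIN with 7 of 10 above 0. The 9 members from long noncoding host genes had medians of 0.38 (7 of 9 above 0) and 0.06 (5 of 9). The 4 from translation factor genes and Tpt1 had 0.35 (3 of 4) and 0.24 (2 of 4). The 10 members from other protein-coding genes had medians of 0.01 and -0.21. Snora73 lies within both Rcc1 and the noncoding Snhg3 and was counted in this group throughout, by Rcc1. All features had -0.22 and 0.05, with 44.0% and 51.9% above 0. In neurons against astrocytes, the members from other protein-coding genes were below 0 in 10 of 10 cases in both genotypes, with medians of -0.93 in WT and -0.80 in KIN, and the 4 from translation factor genes and Tpt1 were below 0 in 4 of 4, with medians of -0.54 and -0.61. The 9 members from long noncoding host genes had medians of 0.13 and 0.35, with 5 of 9 above 0 in each genotype. Those from ribosomal protein genes had -0.43 in each genotype, with 4 of 10 above 0. All features had medians of -0.50 and 0.06, with 40.9% and 51.8% above 0. The WT median of the translation factor group was thus near that of all features. These are descriptions of small groups and no test was made of them.

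The C/D box snoRNAs, measured in the same libraries, give the nearest comparison. None of 75 to 76 tested was called between KIN and WT in any fraction, as for the H/ACA members. Against microglia, 12 of 76 C/D rows were called lower and 11 higher in WT neurons, with a median of -0.19, and 9 lower and 15 higher in KIN neurons, with a median of 0.08. Against astrocytes, 15 were lower and 9 higher in WT neurons (median 0.03) and 6 lower and 10 higher in KIN neurons (median 0.22). H/ACA members called in the same comparisons were lower in all cases but that of Snora26. C/D rows took 11.1% to 12.8% of the counts in astrocytes, 10.0% to 14.1% in microglia and 13.6% to 18.2% in neurons.

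Genes that build or use H/ACA particles were mostly too scarce in small RNA libraries to be tested. Of 16 genes on the list, 13 had no transcript that passed the filter, among them the core proteins Nop10 (12 counts in all libraries), Nhp2 (5) and Gar1 (10), the assembly factors Naf1 (15) and Shq1 (8), and Terc (3). Dkc1, the pseudouridine synthase, had 105 counts, and its transcript Dkc1-201 was called higher in WT neurons than in WT astrocytes (2.91 ± 0.74, edgeR adjusted p = 0.0217). In KIN its value was -0.997 ± 0.677, which was not called (adjusted p = 0.219), and between KIN and WT neurons it was -2.40 ± 0.57 (adjusted p = 0.918). Nop56 and Nop58, core proteins of C/D box particles, had 429840 and 29332 counts, where Fbl, also on the list, had 11. The genes of Nop56 and Nop58 are themselves hosts of snoRNAs. Whether reads of those snoRNAs make up the counts on these rows was not tested. Between KIN and WT 0 of 13 transcripts of the list were called in each fraction, by edgeR. Against WT astrocytes 4 of 14 transcripts of the list were called higher in WT neurons and 0 lower, and in KIN 7 of 14 were higher and 0 lower, beside 10.2% and 22.2% of all features called higher. The WT calls were 2 transcripts of Nop56 and 1 each of Nop58 and Dkc1, and the KIN calls 4 of Nop56 and 3 of Nop58. Against microglia 3 of 13 were called higher in WT neurons and 4 of 12 in KIN, again with 0 lower, beside 13.5% and 26.7% of all features. These were the same 3 transcripts of Nop58 in both genotypes and, in KIN, 1 of Nop56, so the counts stand for few genes, and transcripts of 1 gene can share reads. Between the glial fractions 1 of 13 was called higher in KIN microglia than in KIN astrocytes and 0 of 14 in WT. Nop58-214 was called higher in neurons in all 4 comparisons. Its log2 fold changes were 1.00 ± 0.26 and 1.13 ± 0.20 against astrocytes and 1.22 ± 0.34 and 1.30 ± 0.28 against microglia, in WT and KIN (edgeR adjusted p = 0.0234, 5.67e-06, 0.0233 and 0.000401). For the reason given above, the rows of Nop56 and Nop58 cannot be read as levels of the host mRNA.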

How the data were processed

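Small RNA was sequenced from 18 libraries, 3 per fraction and genotype, and groups and replicate numbers were taken from the titles. Nothing in the labels says that a replicate number marks a brain. Per the study's methods and the submitters' processing notes, the authors trimmed reads with Cutadapt 4.6, aligned them with Bowtie2 2.4.4 in rounds to miRNA, tRNA, piRNA and Ensembl noncoding and coding transcripts of mm39, and counted with HTSeq 2.0.2 without strand and with no minimum mapping quality. The counts they deposited are whole reads per transcript, not normalized. The kit adds molecular identifiers, but their collapsing is not stated for these libraries. A further 36 columns of per-library values on other scales, and the columns of the authors' group means and KIN against WT comparisons (fold changes and p-values), were not used.

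For each comparison the libraries of its groups were fitted in edgeR 4.0.16 (limma 3.58.1, R 4.3.3) by the quasi-likelihood method. Library totals over all features (1211118 to 4316748) were multiplied by TMM factors, a feature needed 5 counts in 2 or more libraries to be kept, and p-values were adjusted by the Benjamini-Hochberg method over all features. A feature was called where the adjusted p was 0.05 or less and the log2 fold change was 1 or more in either direction. CPM are counts per 1000000 counts of the library total, without TMM factors. Replicates of a group differed by more than counting error (chi-square of 5.64 or more per feature), so each was used as a replicate, and p-values measure the spread between these libraries. Shares were compared by exact two-sided permutation tests. The fits were tested on simulated data. DESeq2 1.42.0, other scalings, filters, fits and leaving out each library were alternatives.

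Members, lists and tests were chosen with earlier results of these data known. Named in each comparison were up to 6 called members with the largest change in each direction (where fewer than 3 were called, the 5 with the smallest p), the 12 most abundant members per length, members called in 2 or more comparisons, and a fixed list of members with known roles. Snora9 and Snora52 in microglia, and the neighbours of Snora35, were chosen after their values were seen. Some sequences, positions and host genes are not reported here.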

Additional observations from a re-analysis of the deposited data

How the results depend on the processing

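The number of members called moved by more than 1.5 times in few settings. Between KIN and WT it went from 0 to 1 in astrocytes with library totals, and with single libraries left out it ranged from 0 to 2 in microglia and from 0 to 2 for the difference in KIN effect between microglia and astrocytes. For microglia against astrocytes the range with single libraries left out was 2 to 8 in WT (8 without Astrocytes WT replicate 2, 2 without Astrocytes WT replicate 3) and 1 to 4 in KIN (4 without Microglia KIN replicate 1). For neurons against astrocytes in WT, 1 fit of all 18 libraries gave 11 in place of 7. The replicate block gave 10 for neurons against astrocytes in WT, 14 for neurons against microglia in KIN, and 0 in the 3 comparisons of KIN with WT. Correlations of the deviations of same-numbered libraries were -0.24 to 0.31. In WT they were 0.25, 0.31 and 0.03 for microglia and astrocytes, so above 0 in each pair. For WT neurons they were 0.12, 0.27 and 0.09 with astrocytes, and 0.09, 0.21 and 0.01 with microglia. Between fractions in KIN they ran from -0.22 to 0.14. The labels do not say that a number marks a brain, so the numbers were a block only as an alternative. The study's methods describe the fractions as taken in turn from each brain, and the main fits of fractions take no account of that sharing.

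The differences in H/ACA share turned direction in several settings, and 3 against 3 libraries cannot give an exact p under 0.1. For KIN against WT in microglia (-0.16 percentage points) the share of snoRNA counts gave 0.20 and totals scaled by TMM factors 0.0729. For KIN against WT in neurons (-0.03) leaving out Snora28 gave 0.11, and single libraries left out gave -0.0857 to 0.0426. For KIN against WT in astrocytes (0.01) the latter gave -0.0261 to 0.0407. Totals scaled by TMM factors gave 0.15 there, and the groups did not overlap (exact permutation p = 0.1). For microglia against astrocytes in WT (0.05) the share of snoRNA counts gave -0.28. The cause was not tested.

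With library totals in place of TMM factors, the median log2 fold change over all features moved by -0.12 in astrocytes and -0.22 in microglia for KIN against WT, by 0.20, 0.18 and -0.14 for neurons against astrocytes and against microglia in WT and microglia against astrocytes in KIN, by 0.24 for neurons against astrocytes in KIN, and by 0.47 for neurons against microglia in KIN, where 6 members were then called lower and 2 higher in place of 12 and 0. No member called with the main settings changed sign under any alternative run. Shared rows limit the levels of members that lie in an exon of another listed transcript.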
